A study of Mus musculus with 12 samples.

Results

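Prdm1, Xbp1 and Irf4, the transcription factor genes that carry a B cell into the plasma cell state, were examined in the terminal ileum of 12 male C57BL/6 mice. They are 3 of the 556 genes with values on a NanoString nCounter mouse immunology panel, in which bar-coded probe pairs are counted directly on total RNA without amplification. They were taken by gene symbol, and each symbol matched 1 row. The rule uses no measured value, although the genes were proposed with earlier results of these data known. The mice formed 4 groups of 3. SPF control mice carried a conventional, specific pathogen-free microbiota and were not given antibiotic. SPF PAT mice were also SPF and had 1 course of pulsed antibiotic treatment (PAT) with the macrolide tylosin. It began on postnatal day 5, lasted 5 days and was given to pups that were still nursing. The paper reports that the gut microbiota of PAT-exposed SPF mice was altered for the whole experiment. GF control and GF PAT mice were their germ-free counterparts, the first on water alone and the second on the same tylosin course. All 12 were sampled at week 7, so the PAT mice had been off tylosin for weeks. The SPF litters came from purchased breeders and the GF litters from a germ-free colony, so colonization and origin cannot be told apart. Tylosin was assigned by dam and litter, and the litter of each mouse is not given in the sources used here. The p-values below therefore measure the spread between mice, some of which may be littermates.

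IRF4 is induced when a B cell is stimulated through its antigen receptor or CD40, and high IRF4 turns on Prdm1. Prdm1 encodes BLIMP-1, a repressor that shuts down the B cell program, including Pax5, Bcl6 and Ciita. Xbp1 encodes the unfolded protein response factor that enlarges the secretory machinery once PAX5 no longer represses it. In the gut these steps yield the IgA plasma cells of the lamina propria. None of the genes is confined to that lineage. Irf4 is also used by activated T cells and dendritic cells, Prdm1 by effector T cells and by the epithelium of the suckling gut, and Xbp1 by Paneth and goblet cells. Whole tissue was measured, so fewer cells of a type and less RNA per cell cannot be told apart. The probe count for Xbp1 is for the gene and does not separate spliced from unspliced mRNA.

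In the RefSeq annotation of the mouse genome (GRCm38.p6), Irf4 is a protein-coding gene at chr13:30749233-30766981, Xbp1 lies at chr11:5520641-5525993 and Prdm1 at chr10:44437174-44528558. The 250 bases before an annotated start of each gene are shown because these factors act on one another's genes. They span chr13:30748983-30749232 on the plus strand for Irf4, chr11:5520391-5520640 on the plus strand for Xbp1 and chr10:44458749-44458998 on the minus strand for Prdm1, whose gene span continues upstream of this start. Capitals mark GAAAG on either strand, the core bound by BLIMP-1.
Irf4: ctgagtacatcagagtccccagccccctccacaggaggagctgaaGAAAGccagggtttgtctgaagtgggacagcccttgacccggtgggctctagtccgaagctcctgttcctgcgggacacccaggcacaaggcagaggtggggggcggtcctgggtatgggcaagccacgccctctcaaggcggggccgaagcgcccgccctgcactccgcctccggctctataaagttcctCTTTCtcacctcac
Prdm1: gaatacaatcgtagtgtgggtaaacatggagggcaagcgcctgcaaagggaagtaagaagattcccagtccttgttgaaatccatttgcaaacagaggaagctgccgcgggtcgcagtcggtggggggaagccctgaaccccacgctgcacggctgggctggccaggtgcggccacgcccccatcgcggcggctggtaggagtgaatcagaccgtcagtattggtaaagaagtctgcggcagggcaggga
Xbp1: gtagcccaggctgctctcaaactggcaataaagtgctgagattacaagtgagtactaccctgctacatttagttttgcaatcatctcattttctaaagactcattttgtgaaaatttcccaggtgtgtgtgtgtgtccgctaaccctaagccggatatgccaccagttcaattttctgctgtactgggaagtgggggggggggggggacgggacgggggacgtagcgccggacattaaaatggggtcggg
In windows of 250 bases before to 50 after the start, GAAAG was found 3 times for Irf4, with first bases at -205, -14 and -1 from the start, the last running past the stretch printed. It was not found in the windows of Prdm1 or Xbp1, and 57.3% of 32851 RefSeq promoter windows of that length hold it. Neither ACGTG, the core of XBP1 sites (19.6% of windows), nor the paired IRF element, which can overlap GAAAG (3.44% of windows), was found on either strand in any of the 3 windows. These matches describe letters only, since binding was not measured.

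Irf4 had the widest spread of the 3 genes. Its log2 normalized counts were 8.43, 8.45 and 8.40 in the SPF controls, 7.18, 7.17 and 7.27 in the SPF PAT mice, 5.75, 5.55 and 6.65 in the GF controls and 6.77, 6.75 and 7.23 in the GF PAT mice. The SPF controls lay above all 9 other mice, and the GF controls lay below all of them. How many genes set 1 group apart from all 9 other mice was not counted. Taken as pairs, SPF and GF controls did not overlap for 52.2% of all genes, 25.4% with SPF above. SPF control and SPF PAT mice did not overlap for 41%. Group means were 8.43 ± 0.0230 (SD, n = 3), 7.21 ± 0.0537, 5.99 ± 0.586 and 6.92 ± 0.271 in the same order. In linear normalized counts these groups averaged 344, 148, 67.1 and 122. The GF control mean rests on mouse 37 at 6.65 and on mice 39 and 38 at 5.75 and 5.55. The highest and lowest of the 12 mice were 7.43-fold apart, and 44 of the 445 genes with a mean normalized count of at least 20 had a wider range. Group membership accounted for 91.6% of the variance of Irf4, against a median of 53.6% over all genes.

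Prdm1 fell over a narrower range, with a different order of groups. Its log2 normalized counts were 8.42, 8.02 and 7.92 in the SPF controls, 7.65, 7.34 and 7.20 in the SPF PAT mice, 7.45, 7.83 and 7.86 in the GF controls and 7.33, 7.25 and 6.78 in the GF PAT mice. The 2 control groups stood above their PAT groups without overlap, on either side of the colonization divide. Of all genes, 18.2% had the PAT mice lower without overlap in SPF mice and 7.55% in GF mice. The share with both was not counted. Means were 8.12 ± 0.264 (SD, n = 3), 7.39 ± 0.231, 7.71 ± 0.231 and 7.12 ± 0.296. The largest of the 12 values was 3.11-fold the smallest, and group membership accounted for 75.9% of the variance.

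Xbp1 was flat by comparison. Its log2 normalized counts were 12.98, 12.35 and 12.45 in the SPF controls, 12.88, 12.70 and 12.48 in the SPF PAT mice, 12.54, 12.69 and 12.57 in the GF controls and 12.45, 12.33 and 12.17 in the GF PAT mice. All groups overlapped except that the GF PAT mice lay below the GF controls and below the SPF PAT mice. Of all genes, 7.55% did the first and 8.45% the second. Means were 12.59 ± 0.338 (SD, n = 3), 12.69 ± 0.200, 12.60 ± 0.0821 and 12.32 ± 0.142. The 12 mice spanned 1.76-fold, a range that 340 of the 445 genes exceeded, and group membership accounted for 39.3% of the variance. Across all 4 groups, limma's F-test (Benjamini-Hochberg adjusted over the 556 genes) gave adjusted p = 0.000816 for Irf4, 0.0213 for Prdm1 and 0.360 for Xbp1. That test called 33.1% of all genes.

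**Figure D1:**
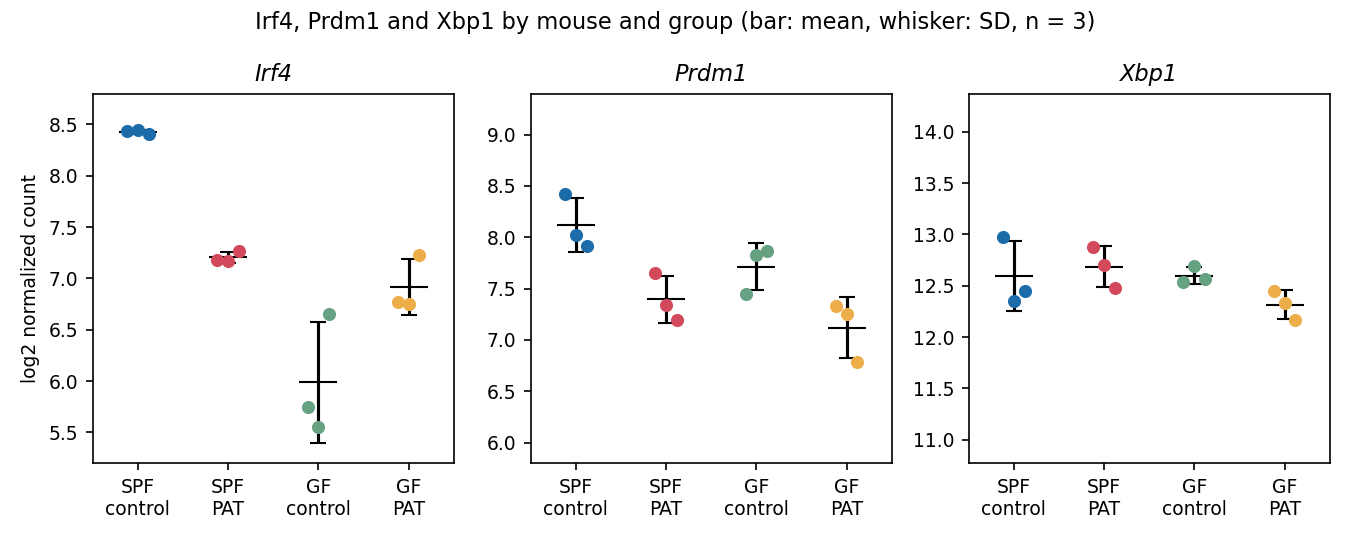
Log2 normalized counts (vertical axis, all 3 panels spanning the same number of log2 units) of Irf4, Prdm1 and Xbp1 in each mouse of the 4 groups; points are mice, horizontal bars are means and whiskers are SD (n = 3). For Irf4 the SPF controls sit at 8.40 to 8.45 and the GF controls at 5.55 to 6.65, with both PAT groups between them, while for Prdm1 each PAT group sits below its own controls.

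The counts behind these values set their precision. Totals over the panel ran from 600308 to 923395 counts per mouse. Recovered raw counts were 4930 to 9702 for Xbp1, 118 to 411 for Prdm1 and 39 to 436 for Irf4. The exact 95% Poisson interval of a single mouse reached at most 0.47 on either side in log2 units for Irf4, in GF control mouse 38 at 39 counts, and at most 0.04 for Xbp1. These intervals cover counting error only.

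The comparison of SPF with GF controls asked how the ileum differs with and without a microbiota, in mice that also differ in origin. Irf4 was 5.43-fold higher in SPF controls, a log2 difference of 2.44 ± 0.25 (SE; 95% confidence interval 1.87 to 3.01; limma, adjusted p = 0.000160), and all 3 SPF mice lay above all 3 GF mice. It was the only one of the 3 genes past the threshold of 0.05, in a comparison that called 42.1% of all 556 genes and 19.4% as higher. That split depends on the scaling, since 108 genes were higher and 126 lower here, against 57 and 169 with median centring and 72 and 137 with quantile normalization. Prdm1 differed by 0.41 ± 0.21 (limma, adjusted p = 0.138), with every SPF control above every GF control, and this difference was -0.04 when each mouse was centred on its median gene. Groups that do not overlap were seen for 52.2% of all genes, and for 25.4% with SPF above GF. Xbp1 differed by -0.01 ± 0.18, with a 95% confidence interval of -0.40 to 0.39. With quantile normalization the Xbp1 difference was 0.45 (limma, adjusted p = 0.0150), so its call depends on the scaling.

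Among the SPF mice the question was whether the early tylosin course still showed in the ileum at week 7. Irf4 was 2.33-fold lower in SPF PAT than in SPF control mice, a log2 difference of -1.22 ± 0.25 (SE; limma, adjusted p = 0.00854). Prdm1 was 1.65-fold lower, at -0.72 ± 0.21 (limma, adjusted p = 0.0316). Both genes were lower in 3 of 3 PAT mice than in any control, and the comparison called 26.3% of all genes, 12.2% as lower. Its split of 78 higher and 68 lower genes was 76 and 30 with median centring, 90 and 49 with quantile normalization and 135 and 57 with total count scaling. The 2 groups did not overlap for 41% of all genes, and for 18.2% the PAT mice were the lower. Xbp1 differed by 0.09 ± 0.18 (95% confidence interval -0.31 to 0.49; limma, adjusted p = 0.696), and its sign turned with quantile normalization (-0.10). The Prdm1 call is the more fragile. It was lost with median centring (-0.37, adjusted p = 0.396) and with quantile normalization (-0.45, adjusted p = 0.281), and when any 1 of SPF control mice 8, 7 and 2 or SPF PAT mice 26 and 21 was left out (adjusted p up to 0.0880). The Irf4 call held without any single mouse, at -1.25 to -1.20. It was lost with the T cell marker level of each mouse as a covariate (-0.72; limma, adjusted p = 0.162). Both calls missed the threshold under Tukey's test after an analysis of variance (Benjamini-Hochberg adjusted p = 0.0631 for Irf4 and 0.159 for Prdm1).

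The same course in GF mice asked what tylosin does without a microbiota. None of the 556 genes passed the threshold with limma (0%), 28 had an unadjusted p under 0.05, and voom on the recovered counts, with the deposited size factors, called 1. Irf4 had the lowest p of the 3 genes. It was 1.91-fold higher on average in GF PAT than in GF control mice, a log2 difference of 0.93 ± 0.25 (SE; limma, unadjusted p = 0.00463, adjusted p = 0.411), and 3 of 3 PAT mice lay above every control. Leaving out single mice moved the difference between 0.71, without GF control mouse 38, and 1.26, without GF control mouse 37. It passed the threshold only without mouse 37 (limma, adjusted p = 0.0176). Prdm1 differed by -0.59 ± 0.21 (limma, adjusted p = 0.653) and Xbp1 by -0.28 ± 0.18 (limma, adjusted p = 0.693), each with all 3 PAT mice below all 3 controls. Across the panel 12.1% of genes separated these 2 groups without overlap, 4.5% with the PAT mice above and 7.55% with them below.

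Whether the PAT difference itself depended on the microbiota was tested with the interaction term, the SPF difference minus the GF difference. For Irf4 it was -2.15 ± 0.36 (SE; 95% confidence interval -2.95 to -1.35; limma, adjusted p = 0.00972), with rank 7 by p among the 556 genes, of which 17.1% passed and 7.19% with a negative term. The 55 positive and 40 negative calls became 60 and 19 with median centring. The term stayed past the threshold without any single mouse, at -2.48 to -1.93. With the T cell marker level of each mouse as a covariate it did not pass (-1.49; limma, adjusted p = 0.114). Nor did it pass in the analysis of variance with Benjamini-Yekutieli adjustment (adjusted p = 0.0868). For Prdm1 the interaction was -0.13 ± 0.29 (95% confidence interval -0.79 to 0.53; limma, adjusted p = 0.759), and it turned positive with median centring (0.41) and quantile normalization (0.29). The Prdm1 differences with PAT were -0.72 in SPF and -0.59 in GF mice, and the interval leaves room for a gap of either sign. For Xbp1 the interaction was 0.38 ± 0.25 (limma, adjusted p = 0.259), with a sign that turned under quantile normalization (-0.09).

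Between the PAT groups, none of the 3 genes passed the threshold, in a comparison that called 1.44% of all genes. SPF PAT exceeded GF PAT by 0.29 ± 0.25 for Irf4, by 0.27 ± 0.21 for Prdm1 and by 0.37 ± 0.18 for Xbp1 (limma, adjusted p = 0.754, 0.714 and 0.530). The panel's 5 higher and 3 lower calls became 4 and 8 with total count scaling. Only for Xbp1 did the 2 groups not overlap, as for 13.7% of all genes, 8.45% with SPF PAT above. The Irf4 gap thus went from 2.44 between control groups to 0.29 between PAT groups, and the change is the interaction term above. SPF PAT mice still had 2.33-fold more Irf4 than GF controls, a log2 difference of 1.22 ± 0.25 (limma, adjusted p = 0.0395), in a comparison that called 2.16% of all genes and 1.44% as higher, with 8 higher and 4 lower calls that became 8 and 8 with total count scaling. Its values did not overlap either, as for 13.8% of all genes, 4.86% with SPF PAT above. In order of level Irf4 thus ran from SPF control through SPF PAT and GF PAT to GF control, and the neighbours SPF PAT and GF PAT did not differ beyond their spread. This call was lost when any 1 of 10 of the 12 mice was left out (adjusted p up to 0.181). Prdm1 (-0.32 ± 0.21) and Xbp1 (0.09 ± 0.18) did not pass there. Several of these comparisons share a group, so they are not independent of one another.

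**Figure D2:**
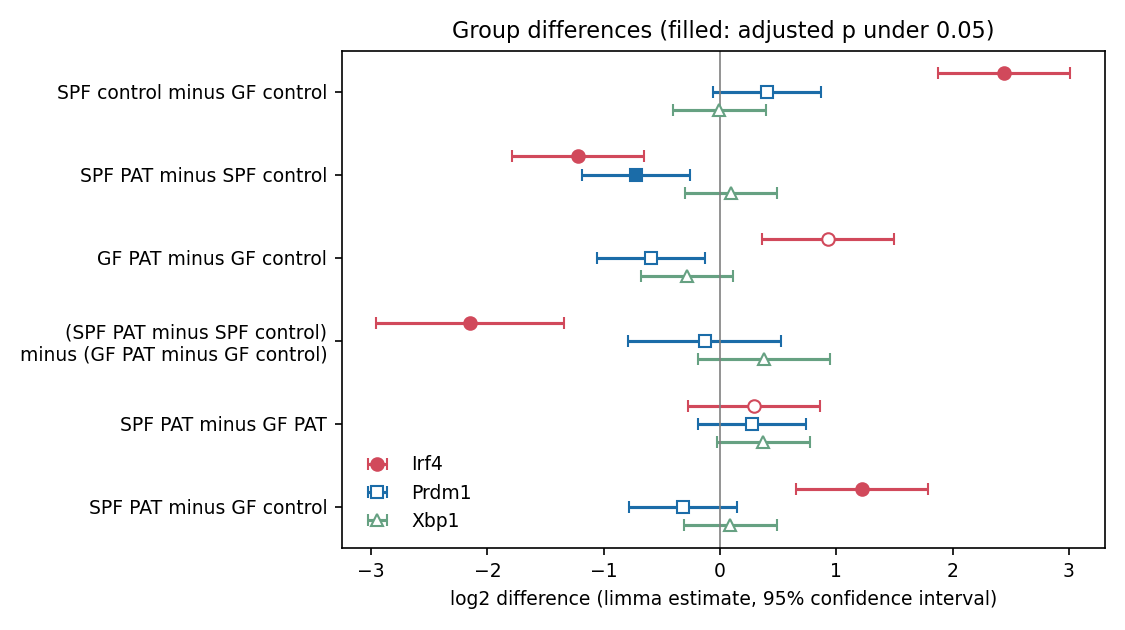
Log2 differences (horizontal axis, limma estimates with 95% confidence intervals) of Irf4, Prdm1 and Xbp1 in the 6 comparisons; filled symbols have an adjusted p under 0.05. Irf4 is at 2.44 for SPF over GF controls, at -1.22 for PAT in SPF mice and at 0.93 for PAT in GF mice, while the intervals of Xbp1 include 0 throughout.

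The other plasma cell and B cell genes of the panel give the setting. Beside their counts stand the panel's own shares, 42.1% of all genes called between SPF and GF controls (19.4% higher) and 26.3% called for PAT in SPF mice (12.2% lower). Whether any list's share differs from the panel's was not tested. Of 12 measured genes for plasma cell survival, 3 were higher and 1 was lower in SPF than in GF controls. Tnfrsf17 encodes BCMA, the receptor that keeps plasma cells alive. It was higher by 2.65 ± 0.33 (SE, log2; limma, adjusted p = 0.000336), Slamf7, a plasma cell and lymphocyte surface receptor, by 1.59, and Tnfsf13b, which encodes the BCMA ligand BAFF, by 0.71. Il6ra, the receptor chain for the plasma cell growth factor IL-6, was lower by 0.78 there and rose with PAT in SPF mice by 0.61. Tnfrsf17 differed by -0.91 between SPF PAT and SPF control mice (limma, adjusted p = 0.0631). The SPF PAT mice exceeded the GF PAT mice in it by 1.67 (limma, adjusted p = 0.0352), where none of Irf4, Prdm1 and Xbp1 passed. The list's median differences were 0.81 for SPF over GF controls and -0.57 for PAT in SPF mice, against 0.08 and -0.02 over all genes.

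All 5 measured genes for IgA cell homing and transport passed between SPF and GF controls, 4 of them higher. Over all genes 42.1% passed there, 19.4% as higher. Ccr9, the receptor that draws lymphocytes to the small intestine, was higher by 1.53, Ccr10, a homing receptor of IgA plasmablasts, by 1.15, the integrin subunit gene Itga4 by 0.80 and Pigr, which encodes the transporter that carries IgA across the epithelium, by 0.77. Ccl25, the epithelial ligand of CCR9, was lower by 1.08. With PAT in SPF mice Ccr9 fell by 1.03 and Ccl25 rose by 0.79, and the other 3 genes did not pass. The list's medians were 0.80 and -0.62.

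Of 12 measured genes of the B cell program that BLIMP-1 shuts down, 3 were higher and 1 was lower in SPF than in GF controls. Over all genes 42.1% were called there, 19.4% as higher. Ciita, the master switch of MHC class II, was higher by 1.82, Irf8, a relative of Irf4 with roles in B cells and dendritic cells, by 0.65 and the B cell linker Blnk by 0.42, while the germinal centre repressor Bcl6 was lower by 0.65. With PAT in SPF mice Irf8 fell by 0.58 and Blnk fell by 0.46. The list's medians were 1.76 and -1.66, and 8 and 10 of its 12 genes did not pass in these comparisons. For PAT in GF mice its median was 1.99, the other way, with 12 of 12 genes not past the threshold. For the interaction it was -3.71, with 11 of 12 not past it.

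Of 14 signals for B cell help and class switching, 3 were higher in SPF than in GF controls, namely the helper T cell genes Icos (2.14) and Cd40lg (1.71) and the IL-4 receptor gene Il4ra (0.35). Ltbr (-0.66), Tgfbr1 (-0.37) and Tgfbr2 (-0.34), receptor genes for lymphotoxin and TGF-beta, were lower. Between these controls 42.1% of all genes were called, 19.4% as higher. With PAT in SPF mice Il21, the helper cytokine that drives plasma cell differentiation, fell by 1.95 and Tgfbr1 rose by 0.40. The medians of this list were 0.44 and -0.26.

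Of 14 IRF family members and partners of Irf4, 4 were higher and 1 was lower in SPF than in GF controls. The panel's shares there were 42.1% called and 19.4% higher. Batf, which binds DNA together with IRF4, was higher by 1.48, Ikzf2, a regulatory T cell factor, by 0.71, Irf8 by 0.65 and Irf1, the interferon-induced member, by 0.54. Irf3, which acts downstream of viral nucleic acid sensors, was lower by 0.58. In SPF PAT mice, relative to SPF controls, Irf1 fell by 0.76, Irf8 fell by 0.58 and Ikzf2 fell by 0.55, and none of the list rose past the threshold. Within the IRF list only Irf8 also had an interaction term past the threshold (-0.55; limma, adjusted p = 0.0289). The median differences were 0.68 and -0.54. No gene of these 5 lists passed between GF PAT and GF control mice. None of the 9 listed genes for endoplasmic reticulum stress and the Xbp1 pathway was measured.

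**Figure D3:**
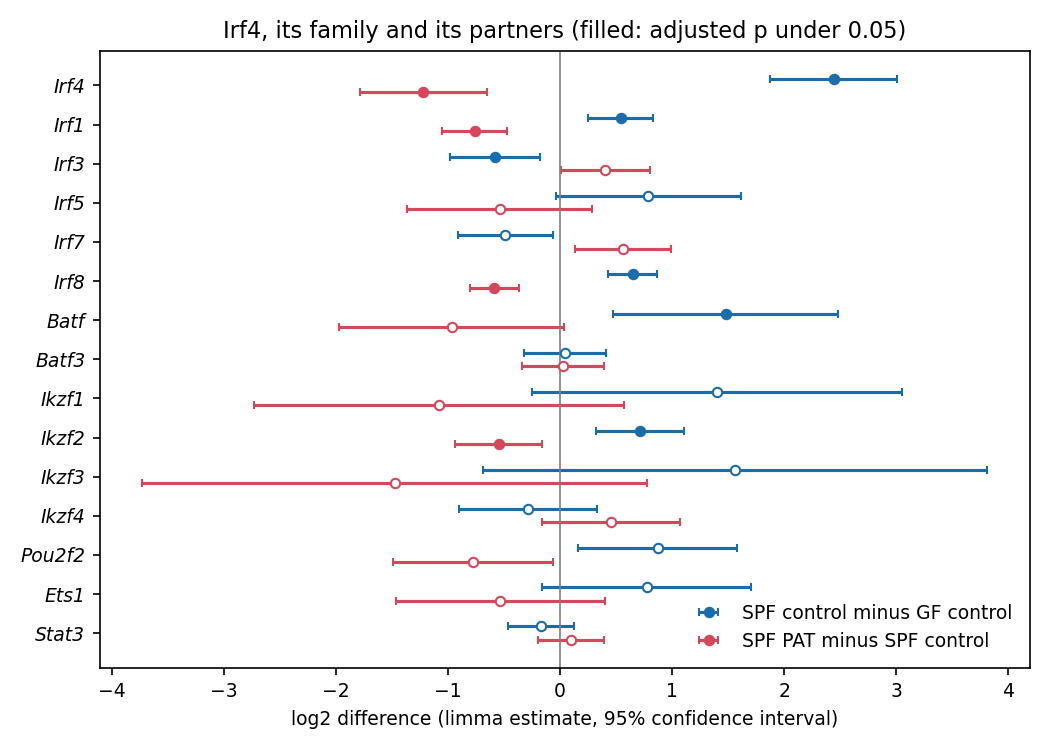
Log2 differences (horizontal axis, limma estimates with 95% confidence intervals) of Irf4 and the 14 measured family members and partners, for SPF control minus GF control (blue) and SPF PAT minus SPF control (red); filled points have an adjusted p under 0.05. Irf4 lies at 2.44 and -1.22, and Irf8 and Irf1 at 0.65 and 0.54 in the first comparison and -0.58 and -0.76 in the second.

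T cell markers differed in some of the comparisons in which Irf4 did. Of 10 measured T cell markers 8 were higher in SPF than in GF controls and 7 were lower in SPF PAT than in SPF control mice, with no marker past the threshold the other way in either, where the panel's shares were 19.4% higher and 12.2% lower. Of the same 10, 4 had a negative interaction past the threshold, against 7.19% of all genes. None of the 10 passed between SPF PAT and GF control mice, in a comparison that called 2.16% of all genes. Irf4 passed there, but its call was lost when any 1 of 10 of the 12 mice was left out. Whether Irf4 and the T cell markers differ in this was not tested. In that comparison 1 of 3 plasma cell markers was higher and 2 of 7 epithelial markers were lower. The T cell markers summed to 1382 to 2039 normalized counts in SPF controls, 446 to 1222 in SPF PAT mice, 428 to 856 in GF controls and 557 to 979 in GF PAT mice. The 9 B cell markers summed to 1306 to 7214, 884 to 6215, 923 to 3834 and 2131 to 6168, and 1 of them passed between SPF and GF controls and 1 for PAT in SPF mice, against 42.1% and 26.3% of all genes. Of the 9 listed plasma cell markers 3 were measured (Tnfrsf17, Tnfrsf13b and Slamf7), and the immunoglobulin, Jchain and Sdc1 genes were not. Of those 3, 2 were higher in SPF than in GF controls and none passed for PAT in SPF mice. They summed to 716 to 783, 318 to 553, 160 to 353 and 258 to 443. Macrophage and dendritic cell markers, with 2 of 8 higher and none lower in SPF than in GF controls and 1 of 8 lower in SPF PAT than in SPF control mice, summed to 1976 to 2688, 1640 to 2144, 1500 to 1928 and 1515 to 1706. Of 11 listed epithelial markers 7 were measured (Pigr, Ceacam1, Itln1, Muc1, Abcb1a, Mme and Dpp4), and Epcam, Cdh1, Vil1 and Tjp1 were not. In SPF controls Itln1 and Pigr had the highest means of the 7 (log2 15.97 and 15.81). Whether these counts and sums follow epithelial content was not tested. Of the 7, 1 was higher and 3 were lower in SPF than in GF controls, against 108 and 126 of all 556 genes. In SPF PAT mice 3 of the 7 were higher than in SPF controls, against 78 of all 556 genes. The 7 did not move together. Mean log2 in SPF control and SPF PAT mice was 12.23 and 13.99 for Abcb1a, but 15.81 and 15.22 for Pigr. A positive interaction past the threshold was seen for 3 of the 7, against 55 of all 556 genes.

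Inside each group the highest Irf4 went with the highest lymphocyte markers. In 4 of 4 groups the mouse with the highest Irf4 also had the highest B cell sum, the highest T cell sum and the lowest epithelial sum, although the SPF controls, and likewise the SPF PAT mice, differed among themselves in Irf4 by less than their counting error. The order of the other mice did not follow the sums throughout, since GF control mouse 38 had a higher B cell sum than mouse 39 and a lower Irf4. GF control mouse 37 had a B cell sum of 3834 and an Irf4 of 6.65, while mice 39 and 38 had sums of 923 and 1158 and Irf4 values of 5.75 and 5.55. The groups did not line up on the same scale. SPF control mouse 8 had a B cell sum of only 1306 with an Irf4 of 8.43, and SPF PAT mouse 21 had a sum of 6215 with an Irf4 of 7.27. With the mean B cell marker level of each mouse as a covariate, a setting added after the values were seen, Irf4 was still higher in SPF than in GF controls (2.29, limma, adjusted p = 0.000190) and lower in SPF PAT than in SPF control mice (-1.04, limma, adjusted p = 0.0170). With the mean T cell marker level as the covariate the first difference was 1.87 (limma, adjusted p = 0.00973). The second was -0.72 (limma, adjusted p = 0.162) and no longer passed, and neither did the interaction (-1.49, limma, adjusted p = 0.114). The T cell level itself differed between the groups, so this fit cannot tell apart Irf4 in T cells from Irf4 elsewhere.

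**Figure D4:**
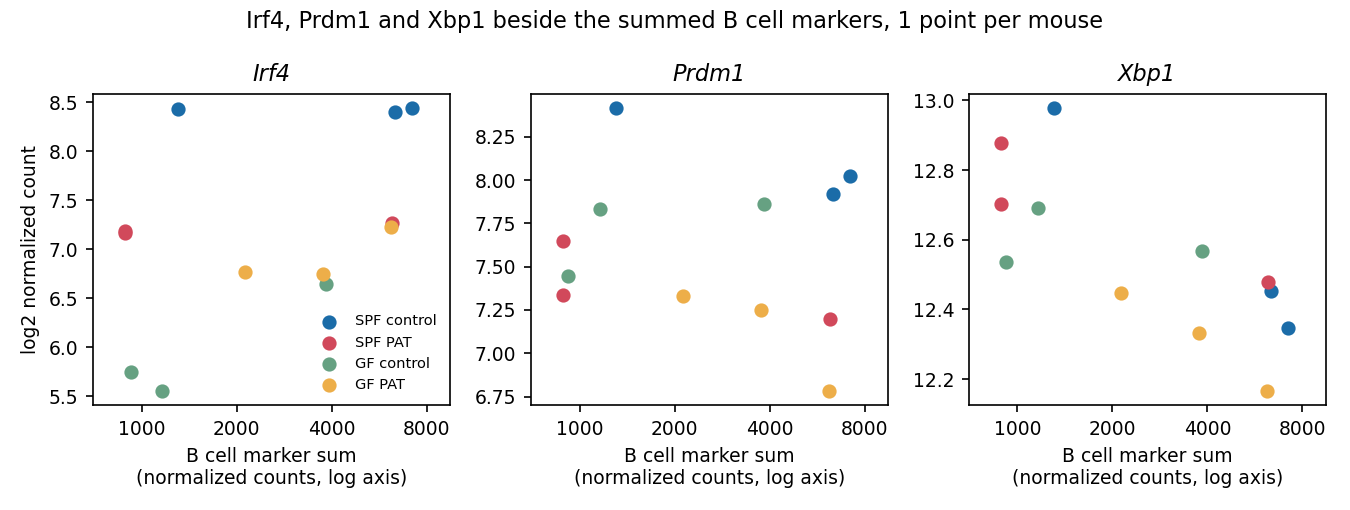
Log2 normalized counts (vertical axes) of Irf4, Prdm1 and Xbp1 against the summed normalized counts of 9 B cell markers (horizontal axis, log scale), 1 point per mouse, coloured by group. SPF control mouse 8 has an Irf4 of 8.43 at a B cell sum of 1306, next to GF controls at 5.55 and 5.75 with sums of 1158 and 923.

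Prdm1 and Xbp1 deviated from their group means together. They lay on the same side of the group mean in 10 of 12 mice, with r = 0.82 across mice. Irf4 lay on the same side as Prdm1 in 5 of 12 mice (r = -0.09) and as Xbp1 in 3 of 12 (r = -0.24). These counts and correlations are descriptions, since values of 1 mouse share its size factor and tissue piece. Deviations from a group mean also cancel out within each group, so the 12 are not independent. Other gene pairs of the panel were not compared. In 4 of 4 groups the mouse with the highest Xbp1 had the lowest T cell sum, and in 3 of 4 it had the highest epithelial sum. For Prdm1 the mouse with the highest value had the lowest T cell sum in 3 of 4 groups. Such orders were not counted for the other genes of the panel. With the T cell level as a covariate Prdm1 was still lower in SPF PAT than in SPF control mice (-1.08, limma, adjusted p = 0.0378).

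**Figure D5:**
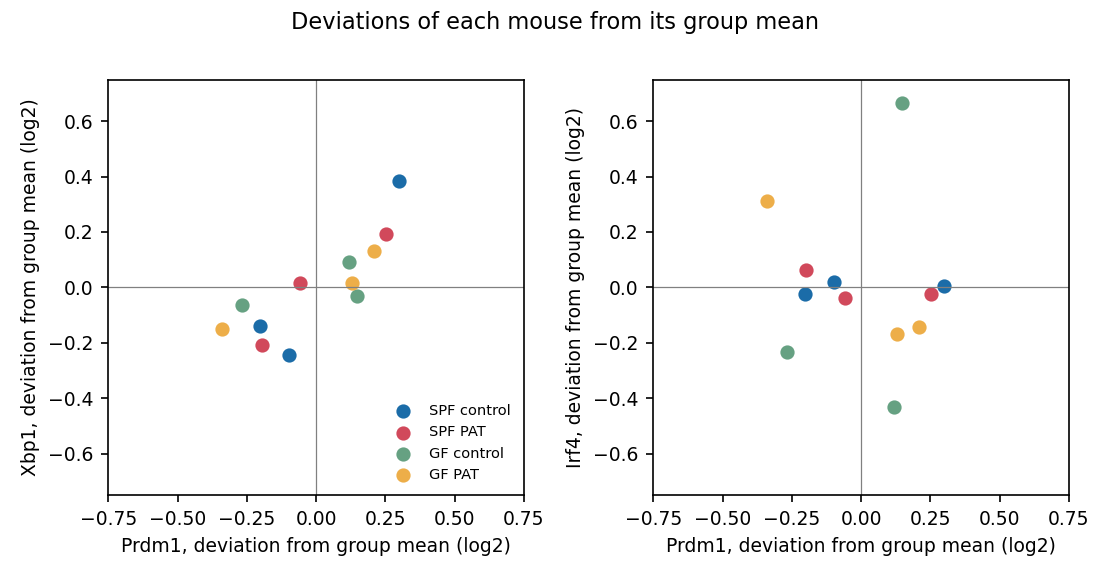
Deviation of each mouse from its group mean in log2 units, Prdm1 on the horizontal axes against Xbp1 (left) and Irf4 (right), coloured by group. Prdm1 and Xbp1 fall on the same side of 0 in 10 of 12 mice (r = 0.82), and Prdm1 and Irf4 in 5 of 12 (r = -0.09).

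The 3 genes did not have each other as nearest profiles. Likeness was the root mean square difference between standardized log2 values over the 12 mice, among 444 other genes with a mean normalized count of at least 20, so that smaller is nearer. Nearest to Irf4 were Lilrb4 (0.267), Ccr9 (0.288) and Tap1 (0.369). Nearest to Prdm1 were Irf1 (0.516), Ceacam1 (0.550) and Nfkbiz (0.562), and nearest to Xbp1 were Ctsc (0.496), Il13ra1 (0.515) and Gpr43 (0.569). The closest pair among the 3 genes was Prdm1 with Xbp1 at 0.847, where Xbp1 ranked 34th for Prdm1. Irf4 stood at 1.06 from Prdm1 and at 1.34 from Xbp1. Without dividing by the SD, the nearest to Irf4 were Tap1, H2-Ab1 and H2-DMa, while Irf1 and Ceacam1 stayed nearest to Prdm1 and Ctsc and Il13ra1 to Xbp1.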

How the data were processed

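RNA from terminal ileum of 12 mice was counted on the nCounter mouse immunology panel. The deposited values are log2 counts, which the authors normalized with DESeq2 (1 size factor per mouse); the version is not given in the sources used here. Reference genes and control probes (28 entries) hold no value, leaving 556 genes. The steps of the log2 values gave back whole counts for 6672 of 6672 values (100%, tolerance 0.01), with size factors of 0.830 to 1.25. Groups came from the labels. All values were fitted with limma 3.58.1 (R 4.3.3) as 4 group means over 12 mice, without a filter, with Benjamini-Hochberg adjustment over 556 genes and a threshold of 0.05; a gene at a count of 0 kept the deposited 0. The code of the fit was run on simulated counts, with known changes in the SPF PAT group and the same dispersion for all genes. That setting is simpler than these data, so it does not bear on the calls given here. Alternatives were the variance trend and robust variance, only the groups compared, a mean count of at least 20, median centring, quantile normalization, total count scaling, log2 of the normalized count plus 1, limma's voom on the recovered counts with the deposited size factors, an analysis of variance with Tukey's test as in the study's methods, and leaving out each mouse. Genes named from each list were those past the threshold, up to 4 with the smallest p per comparison, with values for others where a result turned on them, and the 3 nearest profiles of each gene. The members and lists were chosen with earlier results of these data known. Promoter sequences are from RefSeq (GRCm38.p6; 3 of 3 genes matched), and protein sequences were not used here.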

Additional observations from a re-analysis of the deposited data

Results flagged for a closer look

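The PAT difference of Irf4 was not the same in SPF and GF mice by the test of the difference itself, with an interaction of -2.15 ± 0.36 in log2 units (limma, adjusted p = 0.00972). That call was lost with the T cell marker level as a covariate (-1.49; limma, adjusted p = 0.114). It was also lost in the analysis of variance with Benjamini-Yekutieli adjustment (adjusted p = 0.0868). Irf4 was lower in 3 of 3 SPF PAT mice than in every SPF control and higher in 3 of 3 GF PAT mice than in every GF control, although the GF difference did not pass (limma, adjusted p = 0.411). Of all genes, 18.2% were lower without overlap in the first comparison and 4.5% higher in the second. The same test passed for 17.1% of all genes, 7.19% with a negative term. Among the pathway lists it was negative for Irf8 (-0.55) and Ccr9 (-1.29) and positive for Ccl25 (1.01) and Il6ra (0.85). Of the cell type markers, 4 of 10 for T cells had a negative term and 3 of 7 for epithelium a positive one past the threshold. Over the 556 genes 40 had a negative and 55 a positive term past it. The terms of H2-DMa (-2.14), H2-Ab1 (-2.02), Tap1 (-1.82) and Lilrb4 (-0.95), and that of Ccr9, are given as values only, because these genes were named for their likeness to Irf4 over the same 12 mice. No single mouse was tested as an outlier.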

How the results depend on the processing

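Over the alternatives, 397 values for Irf4, Prdm1 and Xbp1 kept their direction and side of the threshold, 30 lost a call, 1 gained a call and 19 changed sign, of which 1 (Xbp1 between controls with quantile normalization) also gained a call. No paired analysis was possible because the labels number each mouse and no number is shared between groups. The Irf4 difference between SPF and GF controls held under every alternative run. Under the methods' Tukey test, the estimates of Irf4 for PAT in SPF mice (-1.22), of Prdm1 there (-0.72) and of Irf4 for SPF PAT over GF control (1.22) lost their calls under both adjustments. The Irf4 interaction (-2.15) was instead tested with a t-test on the residuals of the same analysis of variance. It lost its call under Benjamini-Yekutieli adjustment only. Fitting only the groups compared lost Prdm1 for PAT in SPF mice (-0.72) and Irf4 for SPF PAT over GF control (1.22). Median centring gave 1.14 and total count scaling 1.25 for the latter, both past the threshold no longer. Median centring gave -0.37 for Prdm1 with PAT in SPF mice, 0.41 for its interaction and -0.035 between controls. Quantile normalization gave -0.45 and 0.29 for the first pair, and for Xbp1 -0.087 for the interaction, 0.45 between controls and -0.10 for PAT in SPF mice. Voom with TMM factors was not run, and voom with the deposited size factors, added after the values were seen, changed no call or direction of the 3 genes. Median centring moved the median of all genes by -0.44 between controls and by 0.36 for PAT in SPF mice, and quantile normalization by -0.23 and 0.16. With marker levels as covariates, added after the values were seen, the B cell level gave 0.14 for Xbp1 between controls and -0.077 for PAT in SPF mice, and the T cell level gave 0.47 and -0.32, -0.16 for the Xbp1 interaction, and -0.72 and -1.49 for Irf4 with PAT in SPF mice and its interaction. Leaving out each mouse gave 0.71 to 1.26 for Irf4 with PAT in GF mice, 1.01 to 1.55 for Irf4 in SPF PAT over GF control, -0.85 to -0.58 for Prdm1 with PAT in SPF mice and -0.30 to 0.018 for its interaction. For Xbp1 it gave -0.20 to 0.12 between controls, -0.0073 to 0.19 for SPF PAT over GF control and -0.029 to 0.29 for PAT in SPF mice. The causes were not tested. Of all genes, 234 passed between controls, against 142 and 49 with the Tukey test under the 2 adjustments and 130 with the T cell covariate. For PAT in SPF mice 146 passed, against 55 and 6, 76 with only the groups compared and 59 with the T cell covariate. The interaction called 95 genes, against 1 with Benjamini-Yekutieli adjustment, 47 with the B cell and 1 with the T cell covariate. SPF PAT against GF PAT called 8 genes, 22 with the T cell covariate and 0 or 1 with median centring, only the groups compared or the Tukey test. SPF PAT against GF control called 12, against 23 with the T cell covariate, 6 with quantile normalization, 2 and 0 with the Tukey test, and 0 with median centring or only the groups compared. Leaving out each mouse gave counts of 64 to 232 for PAT in SPF mice, 35 to 217 for the interaction, 0 to 1 for PAT in GF mice and 1 to 11 for each of the last 2 comparisons.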
